A study of Homo sapiens with 10 samples.

Results

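The VEGFA-LNC deletion clones and their own controls make up 5 of the 10 RNA-Seq libraries of this series, and they were picked by their labels alone. The cells are EA.hy926, an established line made by fusing human umbilical vein endothelial cells with the lung carcinoma line A549. In 3 clonal lines, labelled as a VEGFA_lincRNA knock-out, CRISPR-Cas9 had removed the promoter region of VEGFA-LNC, which lies within an intron of *VEGFA*. The 2 controls were given guides alone, with no nuclease, before being taken through the cloning step. The remaining 5 libraries, 3 clones lacking VEGFC-LNC and their 2 controls, come from the same line and were used to estimate the spread and for comparison. The labels name no further treatment, give total RNA depleted of rRNA, and do not say whether both controls descend from the same founder cell. Each deletion library is a clonal line, so that the deletion and what clonal growth fixed in a line cannot be told apart within a clone. The p-values measure the spread between the libraries. The level of VEGFA-LNC itself was not analysed here.

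*VEGFA* is the main growth factor of endothelial cells and acts through the receptor *KDR*, while *FLT1* and the neuropilins shape its availability. Long noncoding RNAs next to such genes can act on their neighbours or on distant genes, and the deletion of such a promoter takes away regulatory DNA along with the start of the transcript. Endothelial cells answer interferons with a set of antiviral genes and TGF-beta and BMP ligands with SMAD-driven targets, many of which encode matrix proteins and feedback inhibitors.

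Of the 27945 gene symbols, 13333 reached an FPKM times length in kb of 1, which is the read count scaled to library size, in 2 or more libraries and were tested. The 3 clones held 14874241, 18442045 and 17388095 reads and their controls 17388353 and 22578540 reads. Fold changes (FCs) are differences of log2(FPKM + 0.1), a scale on which changes of genes near 0 are understated, and genes were called differentially expressed (DEGs) where limma gave an FDR below 0.05 and the FC reached 1.5. Of 23 endothelial markers, 17 stayed at 1 FPKM or more in each library, among them *PECAM1*, *CDH5* and *TIE1*, while *CLDN5* was listed at 0 throughout. *KRT8*, *KRT18* and *KRT7*, keratins of epithelial cells, were abundant as well, and *EPCAM* and *CDH1* stayed below 1 FPKM. Summed endothelial markers came to 1027, 2457 and 1664 FPKM in clones 1, 2 and 3 and to 1536 and 1578 FPKM in the controls. Summed A549-type epithelial markers came to 1315, 493 and 879 FPKM in the clones and to 1088 and 1098 FPKM in the controls. In such bulk libraries fewer cells of a kind and less RNA per cell cannot be told apart.

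Clone 1 stood apart from the other clones. Over all tested genes its log2 levels correlated with those of clones 2 and 3 at r = 0.911 and 0.934, below the value of 0.981 between clones 2 and 3 and below the values of 0.954 and 0.953 between clone 1 and the controls. The 2 controls were far more alike, with r = 0.995 and a median SD of 0.065 on the log2 scale, against 0.287 between the clones. A chi-square statistic of reads per degree of freedom was 3.73 between the controls, 1.53 between the VEGFC-LNC controls and 25.6 to 135 between the clones. The controls thus differed by more than counting noise and were counted as 2 samples, but whether they are separate clones or repeat preparations cannot be told apart from these values. The first VEGFC-LNC clone also stood apart, with r = 0.963 and 0.962 to the other VEGFC-LNC clones. Between those 2 clones r was 0.978, and between the first VEGFC-LNC clone and its own controls it was 0.967 and 0.971.

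Upon VEGFA-LNC deletion 98 genes (0.735% of those tested) were upregulated and 269 (2.02%) were downregulated, 367 DEGs or 2.75% in all. The 3 clones lay together above or together below both controls in 39.0% of all tested genes. Against this background the DEGs divide by what the other control pair shows. In 303 of the 367 DEGs (82.6%) the 2 controls lay outside the range of the 8 other libraries, which held for 22.0% of all tested genes. In 145 DEGs (39.5%) the 3 clones lay beyond all 4 control libraries of the series, against 13.3% of all tested genes. With all 4 controls as a single group, 13 genes (0.0975%) were upregulated and 16 (0.120%) were downregulated, 0.218% of those tested. All 29 of them were also DEGs against the 2 own controls, and in each of the 29 the clones lay beyond all 4 controls. Since the 29 were chosen against these same 4 controls, the lack of overlap is no separate support. With the replicate number as a block 151 genes were DEGs, 22 of the 29 among them. Averaging each control pair to a single sample left 0 DEGs in limma, with 834 genes at an unadjusted p under 0.05 (2642 with each library counted).

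The genes that rose against all 4 controls as well were led by 4 that were close to silent in the controls. *MDGA2*, a GPI-anchored adhesion molecule known from neurons, was at 3.71, 3.6 and 2.99 FPKM in the clones and at 0.220 and 0.389 FPKM in their controls (log2 FC 3.15, SE 0.27, FDR 0.0016). The VEGFC-LNC controls had 0.181 and 0.190 FPKM, so that the clones did not overlap either control pair. *SGCZ*, which encodes the zeta subunit of the sarcoglycan complex, stood at 5.41, 2.90 and 2.78 FPKM against 0.313 and 0.285 FPKM (log2 FC 3.18, SE 0.32, FDR 0.00365). *CT55*, a cancer-testis antigen on chromosome X, stood at 2.59, 2.44 and 3.54 FPKM against 0.154 and 0.142 FPKM (log2 FC 3.56, SE 0.40, FDR 0.00596), the latter resting on 5 and 6 reads. *TMTC1*, an O-mannosyltransferase of the endoplasmic reticulum, stood at 2.94, 1.61 and 4.09 FPKM against 0.244 and 0.208 FPKM (log2 FC 3.10, SE 0.36, FDR 0.00685). In the VEGFC-LNC clones and controls *TMTC1* had 0 to 0.005 FPKM.

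The other 9 genes of this group were expressed in the controls and rose by smaller factors. *ABCA1*, the transporter that exports cholesterol to apolipoproteins, went from 3.07 and 3.54 FPKM to 8.22, 8.88 and 14.5 FPKM (log2 FC 1.60, FDR 0.0216). *MXI1*, a MAX-binding repressor of transcription, went from 3.05 and 3.09 FPKM to 6.88, 11.4 and 10.8 FPKM (log2 FC 1.59, FDR 0.024). *NTNG2*, a membrane-bound netrin, went from 0.578 and 0.482 FPKM to 1.36, 1.90 and 2.42 FPKM (log2 FC 1.63, FDR 0.0318). For each of the 3 genes the lowest clone lay above the highest of the 4 controls, while *NTNG2* lost its call with the replicate block (FDR 0.062). *GRID1* (log2 FC 1.37), *MARVELD1* (0.91), *PLPP2* (0.91) and *TM7SF3* (0.75) followed, of which *GRID1* and *TM7SF3* had blocked FDRs of 0.0572 and 0.0513, and *IFIT2* and *IFIT3* are described with the interferon genes.

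**Figure D1:**
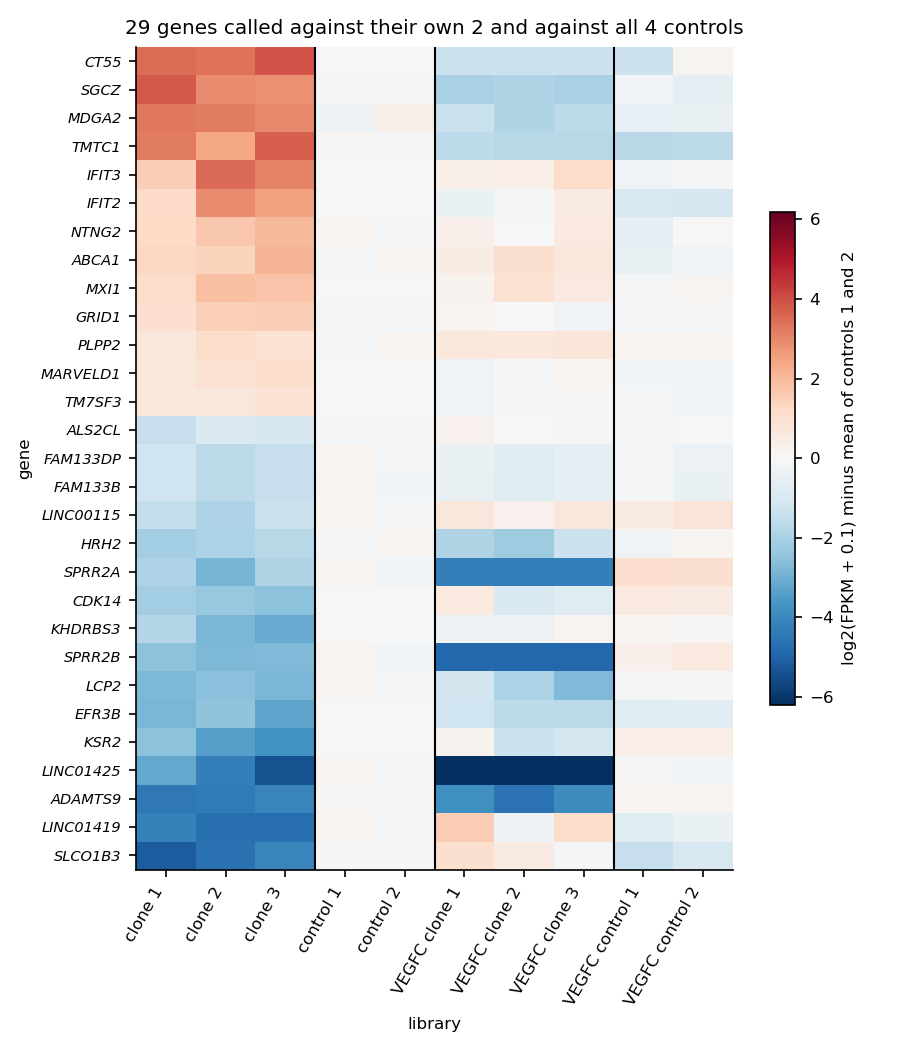
The 29 genes called against the 2 own controls and also against all 4 controls (rows) in each of the 10 libraries (columns), coloured by log2(FPKM + 0.1) minus the mean of controls 1 and 2. The upper 13 genes are higher and the lower 16 lower in all 3 VEGFA-LNC deletion clones than in any of the 4 controls, while several of the lower genes are also low in the VEGFC-LNC deletion clones.

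Among the genes that fell against all 4 controls as well, *SLCO1B3*, an uptake transporter of organic anions, went from 9.15 and 10.1 FPKM to 0.168, 0.290 and 0.472 FPKM (log2 FC −4.64, SE 0.37, FDR 0.0016). The VEGFC-LNC controls stood between, at 3.53 and 4.87 FPKM, and the VEGFC-LNC clones at 9.05 to 19.2 FPKM. *ADAMTS9*, a secreted metalloprotease with anti-angiogenic activity, was at 2.43 and 2.11 FPKM in the controls and at 0.009, 0.015 and 0.040 FPKM in the clones (log2 FC −4.29, SE 0.29, FDR 0.0016). Its level was as low in the VEGFC-LNC clones, where it did not exceed 0.068 FPKM, and the effects of the deletions on it differed by a log2 value of −0.04 (SE 0.41, FDR 0.971). *KSR2*, a scaffold of the RAF-MEK-ERK cascade, went from 1.70 and 1.76 FPKM to 0.218, 0.073 and 0.034 FPKM (log2 FC −3.24, FDR 0.0161). *EFR3B*, an anchor of phosphatidylinositol 4-kinase at the plasma membrane, went from 6.96 and 7.11 FPKM to 0.915, 1.17 and 0.628 FPKM (log2 FC −2.87, FDR 0.0016). *KHDRBS3*, an RNA-binding regulator of splicing, went from 12.6 and 13.4 FPKM to 3.68, 1.72 and 1.38 FPKM (log2 FC −2.60, FDR 0.0116). In these 5 genes every clone lay below all 4 controls.

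The remaining genes of this group included 3 long intergenic noncoding RNAs. *LINC01419* had 1, 0 and 0 reads in the clones and 72 and 78 reads in the controls, a 190-fold lower rate of pooled reads with an exact 95% counting interval of 33.6 to 7570. *LINC01425* was at 0.712, 0.287 and 0.076 FPKM in the clones, at 7.92 and 6.63 FPKM in the controls, and at 0 in the 3 VEGFC-LNC clones. *SPRR2A* and *SPRR2B*, small proline-rich proteins of the cornified envelope, are near-identical copies between which reads may be split. *SPRR2B* was at 0.401, 0.323 and 0.343 FPKM against 3.26 and 2.51 FPKM (log2 FC −2.70, FDR 0.0016), and both genes were at 0 in the VEGFC-LNC clones. *CDK14*, a cyclin Y-dependent kinase, had a log2 FC of −2.35, *LCP2*, the adaptor SLP-76, of −2.72, and *HRH2*, the histamine H2 receptor, of −1.93. *FAM133B* and *FAM133DP*, listed at overlapping positions on chromosome 7, had log2 FCs of −1.42 each. Their reads cannot be told apart, and both are counted in this group. *ALS2CL* had a log2 FC of −1.13 and *LINC00115* of −1.58. With the replicate block *ALS2CL* and *CDK14* lost their calls (FDR 0.0601 and 0.0558).

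**Figure D2:**
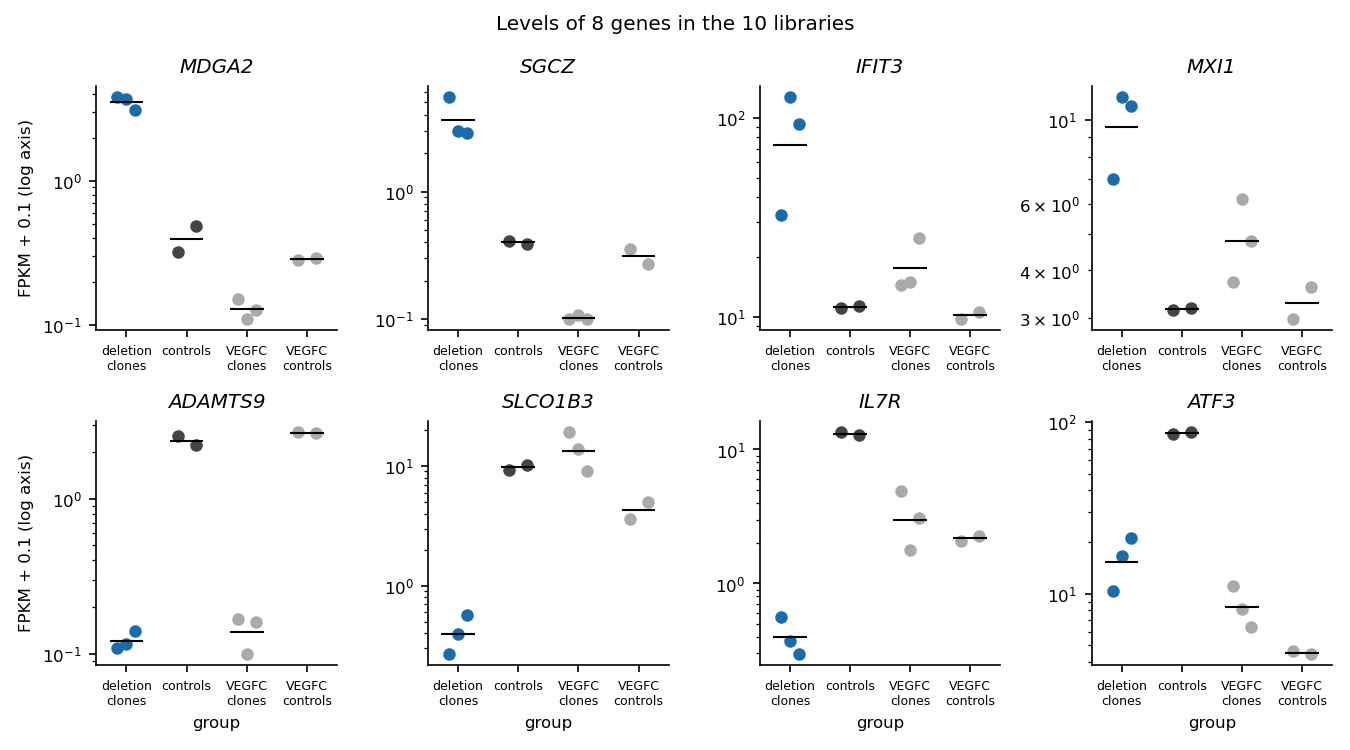
FPKM + 0.1 (log axis) of 8 genes in the VEGFA-LNC deletion clones (blue), their controls (dark grey) and the VEGFC-LNC clones and controls (light grey), with a point per library and a bar at the geometric mean of the group. *MDGA2*, *SGCZ*, *IFIT3* and *MXI1* are higher and *ADAMTS9*, *SLCO1B3* and *IL7R* lower in the clones than in any control, whereas *ATF3* is higher in controls 1 and 2 than in the 8 other libraries.

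The list of VEGF and angiogenic signals held 71 genes, of which 55 were tested. No member was upregulated and 8 (14.5%, against 2.75% of all tested genes) were downregulated, with a list median log2 FC of −0.23 beside −0.06 for all tested genes. Against all 4 controls the median was −0.02 with 1 call, *ADAMTS9*, and the median of the ligands turned from −0.26 to 0.10. *VEGFA* was at 4.68, 4.71 and 7.35 FPKM in the clones and at 10.2 and 9.62 FPKM in the controls. Its log2 FC was −0.85 (SE 0.27, FDR 0.13), and the two-sided exact permutation test of 3 against 2 gave p = 0.2, the smallest value that the 10 splits allow. The VEGFC-LNC controls, at 3.23 and 3.84 FPKM, lay below all 3 clones. Of the other ligands, *VEGFB*, *VEGFC* and *PGF* had log2 FCs of 0.35, −0.51 and 0.63, with FDRs of 0.249, 0.0666 and 0.664. *VEGFC* was at 11.6, 11.4 and 10.8 FPKM in the clones and at 16.1 and 16.0 FPKM in the controls. The receptors *KDR*, *FLT1*, *NRP1* and *NRP2* were not DEGs either, and *KDR* ranged from 0.046 FPKM in clone 1 to 1.39 FPKM in clone 2.

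Of the 24 tested ligands 3 fell, none of them a VEGF. *EDN1*, the vasoconstrictor endothelin, was at 8.16, 12.3 and 9.23 FPKM in the clones and at 44.3 and 43.1 FPKM in the controls (log2 FC −2.15, SE 0.36, FDR 0.0219). *FGF1* (log2 FC −2.5, FDR 0.00785) and *PDGFD* (−2.42, FDR 0.0112) fell from below 1 FPKM. Among targets and feedback genes of VEGF signalling, 5 of 13 tested genes fell and none rose. Earlier looks at these libraries had already pointed to *ADAMTS9* and *HDAC9*. The counts of this list are therefore no independent evidence of its direction. *RCAN1*, the calcineurin inhibitor induced through NFAT, was at 10.4, 9.14 and 10.8 FPKM against 39.8 and 38.1 FPKM (log2 FC −1.94, SE 0.20, FDR 0.00377). *ADAMTS9* belongs here as well. *HDAC9*, a histone deacetylase, had a log2 FC of −3.34, *MMP19*, a matrix metalloprotease, of −1.87 and *KLF4*, a transcription factor of quiescent endothelium, of −1.43. The apelin gene *APLN*, not a DEG, stood at 44.3, 156 and 166 FPKM against 21.2 and 22.7 FPKM (log2 FC 2.25, FDR 0.082), and *LRG1* had a log2 FC of 2.22 (FDR 0.0632). In 6 of the 8 called genes the own controls lay outside the 8 other libraries, and the VEGFC-LNC controls stood within the range of the clones for *EDN1*, at 11.7 and 10.1 FPKM, and below it for *RCAN1*, at 5.75 and 5.97 FPKM.

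Genes of the TGF-beta and BMP pathway showed the largest number of calls among the lists, 12, though not the largest share. Of 60 tested genes 1 rose and 11 fell (20.0% called, against 2.75% of all tested genes). The list median was −0.42, with clone medians of −0.53, −0.34 and −0.30. None of the 8 ligands, 11 receptors and 6 signal transducers tested was called, whereas 5 of 16 inhibitors and 6 of 19 targets fell. *SMAD7*, the inhibitory SMAD, was at 3.68, 2.30 and 2.31 FPKM in the clones and at 9.66 and 11.1 FPKM in the controls (log2 FC −1.90, SE 0.37, FDR 0.0349). *ID3*, an inhibitor of basic helix-loop-helix factors and BMP target, was at 33.3, 13.5 and 11.9 FPKM against 63.9 and 63.2 FPKM (log2 FC −1.86, SE 0.40, FDR 0.049), and *ID2* had a log2 FC of −2.63. The remaining inhibitors were *SKIL* (log2 FC −1.41), *FSTL3* (−1.46), *VASN* (−2.33) and *PMEPA1* (−1.80), and further targets were *ATOH8* (−2.47), *COL1A1* (−1.50) and *MMP2* (−1.35). *LTBP4*, which binds latent TGF-beta, rose by 0.60. In 11 of these 12 genes the own controls lay outside the 8 other libraries, and the list median was −0.10 against all 4 controls with 0 calls. The list includes genes that earlier looks at these libraries had pointed to, so that its count is no independent evidence of its direction.

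Extracellular matrix genes overlapped with that list, with 0 of 83 tested genes up and 10 down at a median of −0.32. The share called was 12%, against 2.75% of all tested genes. Against all 4 controls the median turned to 0.06 with 1 call, *ADAMTS9*, and in 7 of the 10 called genes the own controls lay outside the 8 other libraries. Besides *ADAMTS9*, *MMP2*, the gelatinase A, was at 35.6, 49.8 and 38.8 FPKM in the clones and at 107 and 102 FPKM in the controls (log2 FC −1.35, SE 0.23, FDR 0.0253). The VEGFC-LNC controls had 66.6 and 66.8 FPKM of *MMP2*, still above every clone. *RELN*, the secreted glycoprotein reelin, was at 0.842, 0.292 and 0.475 FPKM against 4.16 and 4.26 FPKM (log2 FC −2.85, FDR 0.00855), with 0.183 and 0.198 FPKM in the VEGFC-LNC controls. *TNC*, the matrix protein tenascin C, had a log2 FC of −2.48, the fibrillar collagen genes *COL5A1* and *COL1A1* of −1.20 and −1.50, the fibrillin gene *FBN1* of −1.06 and the laminin gene *LAMA3* of −0.90. *COL1A1* stayed below 1 FPKM in all libraries, as did the fibroblast markers *DCN* and *LUM*. Summed over 10 markers of fibroblasts and mural cells, of which *RGS5* is the most abundant, levels came to 72.0, 116 and 158 FPKM in the clones and to 158 and 161 FPKM in the controls, and their part in the matrix result was not tested. *SPOCK1*, a proteoglycan, was not called and was split between the clones, at 88.6 FPKM in clone 1 and 12.2 and 8.55 FPKM in clones 2 and 3, against 77.0 FPKM in either control.

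In the cell adhesion list 1 of 58 tested genes, *MDGA2*, rose and 5 fell (10.3% called, against 2.75% of all tested genes). In 5 of the 6 called genes, all but *MDGA2*, the own controls lay outside the 8 other libraries. Against all 4 controls the list median was −0.04 with 1 call, *MDGA2*. *ITGAV*, the integrin alpha V subunit, was at 33.2, 37.7 and 35.2 FPKM in the clones and at 78.6 and 80.3 FPKM in the controls (log2 FC −1.17, SE 0.16, FDR 0.012), and its partner subunit *ITGB8*, which with *ITGAV* activates latent TGF-beta, was at 0.2, 0.198 and 0.354 FPKM against 4.5 and 4.68 FPKM (log2 FC −3.77, FDR 0.012). *CD44*, the hyaluronan receptor, had a log2 FC of −1.12 *TENM3*, a teneurin, of −1.65 and *SLAMF7*, an immunoglobulin receptor known from leukocytes, of −3.38. Of 24 coagulation and fibrinolysis genes 3 (12.5%) fell. In all 3 the own controls lay outside the 8 other libraries, and 0 genes of the list were called against all 4 controls. *PLAT*, the tissue plasminogen activator, was at 85.3, 174 and 143 FPKM against 735 and 771 FPKM (log2 FC −2.55, SE 0.41, FDR 0.0208), and *SERPINE2*, the inhibitor protease nexin 1, at 1.02, 1.32 and 2.12 FPKM against 14.4 and 15.3 FPKM (log2 FC −3.30, FDR 0.0156). The VEGFC-LNC controls had 238 and 231 FPKM of *PLAT*, above all clones, but 1.26 and 1.03 FPKM of *SERPINE2*, within their range.

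Stress and growth factor response genes fell in part. Of 44 tested immediate-early and cAMP response genes 0 rose and 4 fell (9.09%, against 2.75% of all tested genes). *ATF3*, a stress-induced transcription factor, was at 10.2, 16.5 and 21.0 FPKM in the clones and at 85.1 and 87.5 FPKM in the controls (log2 FC −2.49, SE 0.31, FDR 0.00794). The AP-1 subunit gene *FOS* stood at 1.06, 1.18 and 1.07 FPKM against 3.82 and 3.6 FPKM (log2 FC −1.66, FDR 0.0281), *ARC* had a log2 FC of −1.66 and *CREB5* of −1.45. In each of the 4 the own controls exceeded the 8 other libraries, and *ATF3* was at 4.51 and 4.36 FPKM in the VEGFC-LNC controls. Of 31 MAPK feedback genes 4 (12.9%) fell, namely *KSR2* and the dual-specificity phosphatases *DUSP8* (log2 FC −2.62), *DUSP10* (−1.38) and *DUSP1* (−0.88). *HMOX1*, the heme oxygenase of the oxidative stress response, was at 13.8, 49.7 and 33.5 FPKM against 140 and 146 FPKM (log2 FC −2.33, SE 0.43, FDR 0.0313), with 11.4 and 11.9 FPKM in the VEGFC-LNC controls.

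The circadian clock list had 21 tested genes, of which 1 rose and 4 fell (23.8% called, against 2.75% of all tested genes). *ARNTL*, the activator BMAL1, was at 2.31, 2.64 and 2.64 FPKM in the clones and at 5.09 and 5.21 FPKM in the controls (log2 FC −1.0, SE 0.17, FDR 0.0252), while *NPAS2*, which can replace CLOCK as its partner, was at 4.86, 4.96 and 5.11 FPKM against 2.62 and 2.5 FPKM (log2 FC 0.93, SE 0.16, FDR 0.0255). The repressors *PER1* (log2 FC −1.38, FDR 0.046) and *CRY1* (−0.82, FDR 0.0276) and the output repressor *NFIL3* (−0.84, FDR 0.0407) fell. In all 5 the own controls lay outside the 8 other libraries. The effects of the 2 deletions differed for *ARNTL* (difference in log2 FC −1.50, FDR 0.0265) and *NPAS2* (1.20, FDR 0.0441), a call that was lost with the replicate number as a block (FDR 0.0545 and 0.0801). Clock factors bind E-boxes, written CACGTG on either strand, which 7.43% of 27305 promoters in the RefSeq table (250 bases before to 50 after the start, GRCh38.p14) hold, and which 4 of the 17 tested clock genes with an entry hold. *PER1*, shown as the called clock gene among the 4, has its E-box (in capitals) 173 bases before the start, in chr17:8152355-8152654 on the minus strand.

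PER1: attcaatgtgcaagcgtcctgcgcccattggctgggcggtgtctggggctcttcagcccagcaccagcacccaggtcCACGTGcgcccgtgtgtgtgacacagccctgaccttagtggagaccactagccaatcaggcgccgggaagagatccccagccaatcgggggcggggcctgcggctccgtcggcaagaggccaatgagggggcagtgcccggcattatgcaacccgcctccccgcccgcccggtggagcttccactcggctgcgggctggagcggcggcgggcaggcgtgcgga

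The interferon response differed between the clones, which shared 3 DEGs. Of 83 tested genes 3 (3.61%) rose and 0 fell, against 0.735% and 2.02% of all tested genes, and the median log2 FC was 0.60. *IFIT3*, which encodes an interferon-induced protein with tetratricopeptide repeats, was at 32.4, 127 and 92.9 FPKM in the clones and at 10.9 and 11.2 FPKM in the controls (log2 FC 2.70, SE 0.50, FDR 0.0307). Its neighbour *IFIT2* was at 17.6, 59.8 and 43.9 FPKM against 7.68 FPKM in either control (log2 FC 2.21, SE 0.46, FDR 0.0425). Both exceeded all 4 controls in every clone, and both lost their call with the replicate block (FDR 0.0535 for *IFIT3* and 0.0665 for *IFIT2*). *NMI*, an interferon-induced partner of STAT proteins, was at 20.5, 32.4 and 26.2 FPKM against 13.8 and 13.7 FPKM (log2 FC 0.91, SE 0.18, FDR 0.0375), but the VEGFC-LNC controls had 27.7 and 24.6 FPKM and its blocked FDR was 0.0811. Median differences of the list were −0.06 in clone 1, 1.12 in clone 2 and 0.93 in clone 3. Without clone 1, 40 of the 83 genes rose and 1 fell, against 5.51% and 7.48% of all tested genes.

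Effector genes showed this split. *IFI6* was at 38.8, 458 and 377 FPKM in clones 1, 2 and 3 and at 35.2 and 33.4 FPKM in the controls, and *IFIT1* at 8.62, 55.9 and 47.8 FPKM against 4.96 and 4.89 FPKM (log2 FC 2.51, SE 0.82, FDR 0.143). *MX2* and *XAF1*, the uncalled members with the largest differences, were at 0.639 and 0.503 FPKM in clone 1 and at 20.0 and 15 FPKM in clone 2. The effect of the deletions differed significantly in 0 of the 83 genes, and the VEGFC-LNC list median was 0.30. The class I antigen presentation genes had clone medians of −0.32, 0.91 and 0.58, with 0 of 23 up and *MICA*, a ligand of NK cell receptors, down (log2 FC −0.86, FDR 0.024).

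Many interferon-induced genes carry a response element that STAT and IRF factors bind. Its core, searched on both strands as GAAA followed after any 2 bases by GAAA, is held by 3.65% of the 27305 promoters and by 35 of the 61 tested interferon genes with an entry (57.4%). The promoters of *IFIT3* and *NMI*, upregulated DEGs of the list, and of *IFIT1* are shown with the core in capitals, on whichever strand it lies (reading TTTC, 2 bases and TTTC where it lies on the other). *IFIT3* lies at chr10:89327747-89328046 and *IFIT1* at chr10:89392373-89392672, both on the plus strand, and *NMI* at chr2:151289619-151289918 on the minus strand. *IFIT3* and *IFIT1* hold 2 cores each and *NMI* holds 1, and a match of letters is a description of these windows only.

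IFIT3: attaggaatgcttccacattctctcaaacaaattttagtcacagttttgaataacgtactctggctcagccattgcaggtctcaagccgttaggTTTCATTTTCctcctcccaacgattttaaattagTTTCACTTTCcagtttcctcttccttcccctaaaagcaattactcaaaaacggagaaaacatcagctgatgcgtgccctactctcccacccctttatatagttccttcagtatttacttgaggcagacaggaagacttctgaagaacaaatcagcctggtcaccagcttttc
NMI: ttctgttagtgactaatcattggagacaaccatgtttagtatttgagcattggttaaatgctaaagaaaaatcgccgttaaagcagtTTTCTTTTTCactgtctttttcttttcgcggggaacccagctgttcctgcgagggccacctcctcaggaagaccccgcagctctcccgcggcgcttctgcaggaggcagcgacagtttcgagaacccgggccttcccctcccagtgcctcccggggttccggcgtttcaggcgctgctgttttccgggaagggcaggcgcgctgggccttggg
IFIT1: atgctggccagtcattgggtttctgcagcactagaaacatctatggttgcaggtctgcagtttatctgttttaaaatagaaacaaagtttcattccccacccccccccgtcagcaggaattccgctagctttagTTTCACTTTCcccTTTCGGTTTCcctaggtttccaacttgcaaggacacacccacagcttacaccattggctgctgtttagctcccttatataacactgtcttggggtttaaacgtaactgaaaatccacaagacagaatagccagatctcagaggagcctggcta

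**Figure D3:**
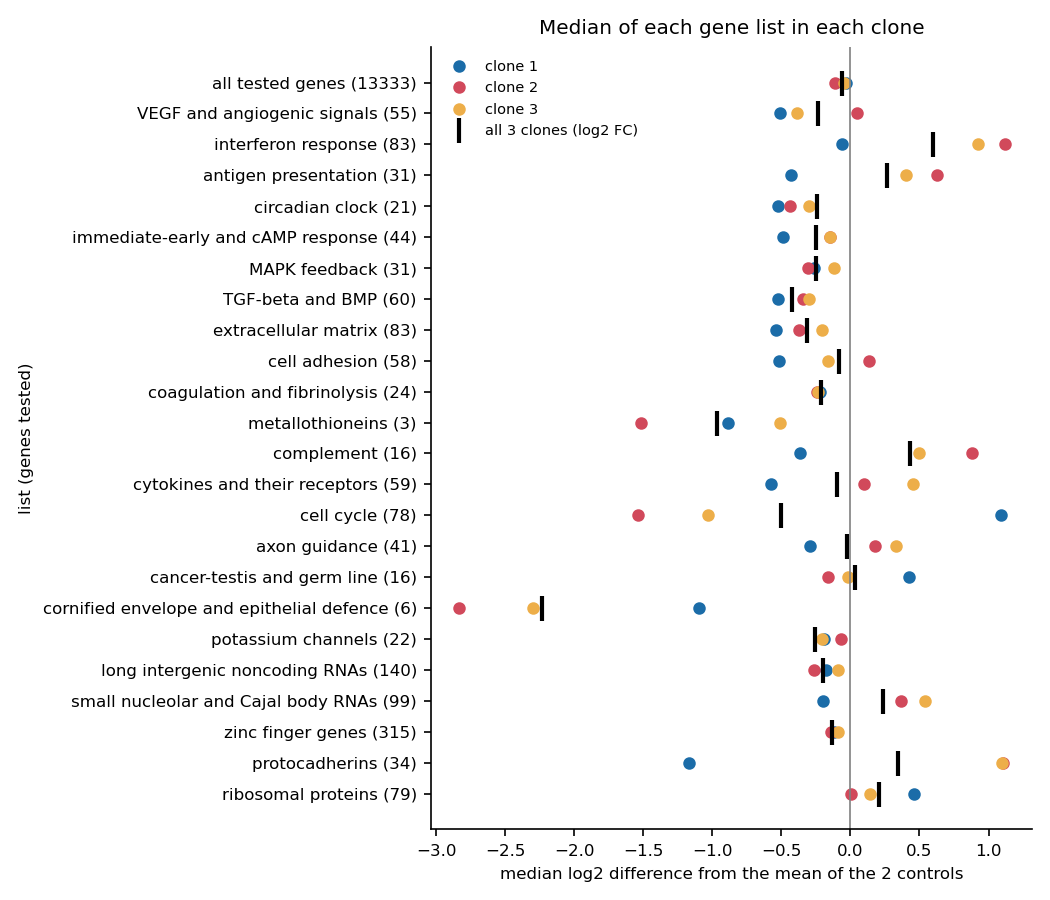
Median log2 difference of each gene list from the mean of the 2 controls in clone 1 (blue), clone 2 (red) and clone 3 (yellow), with a black tick for the median log2 FC over the clones and the number of tested genes in brackets. The TGF-beta and BMP, matrix, clock and coagulation lists lie below 0 in all 3 clones, whereas interferon, protocadherin and cell cycle genes lie on opposite sides in clone 1 and clones 2 and 3.

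Cell cycle genes were split in the opposite sense. Of 78 tested genes 1 rose (*MXI1*) and 1 fell (*CDK14*), 2.56% called against 2.75% of all tested genes. The list medians were 1.09 in clone 1, −1.54 in clone 2 and −1.03 in clone 3. All 30 mitosis genes had a log2 FC below 0 without any being called, and their medians were 1.17, −2.25 and −1.42 in clones 1, 2 and 3. *KIF20A*, a mitotic kinesin, was at 26.9, 2.58 and 4.03 FPKM against 14.7 and 14.0 FPKM, and *CENPE*, a kinetochore motor, at 11.1, 0.919 and 1.98 FPKM against 6.30 and 5.79 FPKM. Protocadherin genes had 34 tested members, none called, and medians of −1.17, 1.11 and 1.10. Those of the gamma cluster share exons, so that their reads cannot be told apart, and had nearly equal values. *PCDH9* and *PCDH10*, outside the cluster, were below the controls in all 3 clones. Without clone 1, 25 of the 34 protocadherin genes rose and 1 fell, against 5.51% and 7.48% of all tested genes. Because of the shared reads these counts are not counts of separate signals. A run of 50 neighbouring genes on chromosome 6 from 26204873 to 28321972 on hg19, which holds replication-dependent histone genes, had medians of 1.76, −0.57 and −0.48 in the clones and of 1.59 in the VEGFC-LNC controls relative to the own controls.

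The 10 genes with the widest range between clones among those averaging at least 5 FPKM, given as a description, were *C3*, *MMP10*, *FER1L6*, *CALCRL*, *LTB* and *KANK3* besides the 4 copies of *MIR6859*, which share their values. *C3*, the central complement component, was at 0.198, 3.5 and 46.3 FPKM and *MMP10*, a stromelysin, at 0.423, 24.1 and 40.7 FPKM. *CALCRL*, the receptor of adrenomedullin and a gene of endothelium, was at 0.405, 28 and 7.32 FPKM against 4.42 and 4.27 FPKM in the controls. *LTB*, the cytokine lymphotoxin beta, was at 0.227, 15.2 and 13.9 FPKM against 0 and 0.1 FPKM. Clone 1 was the lowest in each of these 10. Of the 22 endothelial markers above 0, 20 were lowest in clone 1, such as *PECAM1* at 13.9, 159 and 56.1 FPKM in clones 1, 2 and 3, and *THBD* and *ICAM2* were lowest in clone 3. The list medians were −0.64, 1.10 and 0.18, and *EMCN* was below its controls (4.83 and 5.06 FPKM) in each clone, at 0.050, 1.54 and 0.172 FPKM. In the VEGFC-LNC clones *EMCN* was low as well, at 0.022, 0.121 and 0.184 FPKM against 6.39 and 6.74 FPKM in their controls. The effects of the 2 deletions on it differed by a log2 value of 1.44 (FDR 0.554). Summed endothelial markers were also lowest in the first VEGFC-LNC clone, at 1405 FPKM against 1905 and 2238 FPKM in the others. The part of these differences in marker levels in the results on the other lists was not tested. Leaving clone 1 out raised the DEGs to 1732 (735 up, 997 down), with 95 of the 98 and 269 of the 269 among them.

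**Figure D4:**
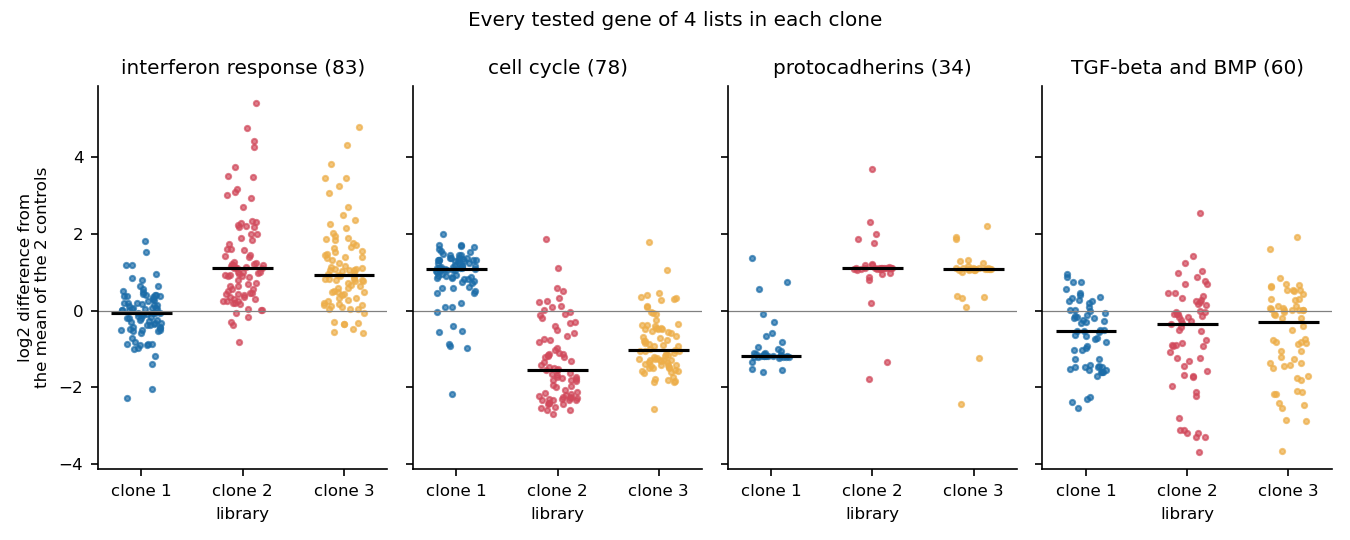
Log2 difference from the mean of the 2 controls for every tested gene (points) of 4 lists in clones 1, 2 and 3, with a bar at the median. Interferon and protocadherin genes have medians near or below 0 in clone 1 and above 0 in clones 2 and 3. Medians of cell cycle genes do the reverse, and those of TGF-beta and BMP genes are below 0 in all 3 clones.

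Cytokine genes and their receptors had 59 tested members, of which 1 rose and 3 fell (6.78% called, against 2.75% of all tested genes). *IL7R*, the interleukin 7 receptor, had the lowest log2 FC of all DEGs on the log2(FPKM + 0.1) scale, at 0.463, 0.274 and 0.198 FPKM in the clones and 13.4 and 12.7 FPKM in the controls (log2 FC −5.05, SE 0.41, FDR 0.0016). The VEGFC-LNC controls had 1.98 and 2.15 FPKM, above each clone, and against all 4 controls the log2 FC was −3.75 (FDR 0.075). *IL6ST*, the signal-transducing receptor gp130, was at 24.5, 27.7 and 23.5 FPKM against 44.3 and 45.7 FPKM (log2 FC −0.84, FDR 0.0139). The alarmin *IL33* was at 2.12, 3.35 and 3.71 FPKM against 1.13 and 0.953 FPKM (log2 FC 1.44, FDR 0.0228), and *IL36A* had a log2 FC of −3.51. Of the genes of the cornified envelope, 3 of 6 tested fell, *PRR9* with 3 reads over the clones and 177 over the controls. Among 140 long intergenic noncoding RNAs 2 rose and 8 fell (7.14%), *LINC01260* with a log2 FC of −3.11 and *LINC00648* with 2.43. Of 99 small nucleolar and Cajal body RNAs 2 (2.02%) were called, and both lost their call with the replicate block (FDR 0.0811 each). *SCARNA10* rose (log2 FC 1.65, FDR 0.049). *SNORD104* rose against the own controls (0.82, FDR 0.0437), on 7, 9 and 7 reads in the clones and 5 and 5 in the controls. Against all 4 controls *SNORD104* was lower (−0.32, FDR 0.834). Of the 315 tested genes of the zinc finger list 1 rose, *ZNF395* (2.31), and 7 fell (2.54% called, near the share of all tested genes). The list does not hold *ZNF518A*, an upregulated DEG of chromosome 10. No member was called among 79 ribosomal protein genes (median 0.20), 16 complement genes (0.43) and 3 metallothionein genes (−0.97).

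Upregulated DEGs were gathered in the distal long arm of chromosome 10. The stretch from position 75910943 to 135236033 on hg19, chosen after its values were seen, holds 268 tested genes (2.01% of all), and 18 of them were upregulated (18.4% of the 98) while 0 were downregulated. On the rest of the chromosome, 250 tested genes, 1 rose and 4 fell. The median difference of the 268 genes from the controls was 0.36 in clone 1, 0.27 in clone 2 and 0.32 in clone 3, and −0.11 in the VEGFC-LNC controls. *GRID1*, *IFIT2*, *IFIT3*, *MARVELD1* and *MXI1* are 5 of the 13 genes that rose against all 4 controls, and all lie there. Others among the 18 were *TRIM8* (log2 FC 1.20), *TACC2* (1.17), *TSPAN14* (1.08), *WDR11* (0.92), *DOCK1* (0.92), *ZNF518A* (0.83), *ATAD1* (0.79) and *CTBP2* (0.77). Of 263 runs of 50 neighbouring genes across the genome, 2 had medians above 0.2 in all 3 clones, and both belong to this stretch. Another 4 runs, all on chromosome 19, had medians below −0.2 in all 3 clones. Of the 18 genes, the clones lay above all 4 controls in 15 and the own controls lay below the 8 other libraries in 11. Over all 98 upregulated DEGs, the clones lay beyond all 4 controls in 65.3% and the own controls outside the 8 other libraries in 64.3%. The number of copies of this stretch in the clones was not measured here.

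The effect of the VEGFA-LNC deletion was set against that of the VEGFC-LNC deletion in the same fit. The difference passed the threshold for 194 genes (1.46% of those tested), 79 with a higher and 115 with a lower log2 FC upon VEGFA-LNC deletion, and for 86 genes with the replicate number as a block. Among the 194 were 119 of the 367 DEGs. *SLCO1B3* differed by −6.30 (SE 0.53, FDR 0.00325), *MDGA2* by 4.30 (SE 0.38, FDR 0.004) and *SGCZ* by 4.79 (SE 0.45, FDR 0.00412). For *IFIT2* and *IFIT3* the differences were 1.20 and 1.92, with FDRs of 0.359 and 0.199.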

How the data were processed

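Total RNA depleted of rRNA was sequenced in 10 libraries. The deposited table gives FPKM values that the authors made per RefSeq transcript of hg19, and the making of this table is not given in the sources used here. The submitters' processing notes name Trim Galore 0.4.4, STAR 2.5.4b and featureCounts. Every low value came out as a whole number of reads (100% within 0.2 reads), from which depth was taken. The 42 rows without a gene symbol were left out.

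For each symbol the transcript with the highest mean FPKM was kept. Genes with FPKM times length in kb of at least 1 in 2 libraries were tested with limma 3.58.1 (trend, R 4.3.3) on log2(FPKM + 0.1), in a fit of the 4 groups, with Benjamini-Hochberg adjustment over all tested genes. Figures and counts were made with Python 3.11.15, numpy 2.4.6, pandas 2.3.3 and scipy 1.17.1. The script was tested on simulated data. The alternatives were other pseudocounts, filters, scaling, voom on recovered reads, an FC of at least 2, a replicate block, averaged control pairs, other sets of libraries and leaving out each library.

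Deviations of same-numbered VEGFA-LNC clones and controls correlated at 0.021 and 0.026, so that they share only a number. Those of VEGFA-LNC and VEGFC-LNC clones correlated at 0.55, 0.41 and 0.22, so that the blocked value is given beside the difference of the 2 deletions.

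The gene lists and the comparisons were chosen with earlier results of these data known. Counts of calls in any list are therefore no independent evidence of its direction. Genes were named by rule: the 12 largest rises and falls, up to 6 called and 2 uncalled members of each list, the VEGF ligands and receptors, the 10 genes with the widest range between clones, and up to 8 genes whose effects differed between the deletions. The 29 genes called against all 4 controls, the markers, the genes of chromosome 10 and *IFIT1*, *IFI6* and further list members were added after their values were seen. Some members of these groups are not reported here.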

Additional observations from a re-analysis of the deposited data

Results flagged for a closer look

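The effects of the VEGFA-LNC and VEGFC-LNC deletions differed in the same fit (limma, FDR under 0.05) and most widely for 8 genes that were DEGs upon VEGFA-LNC deletion. Each difference is a log2 FC upon VEGFA-LNC deletion minus that upon VEGFC-LNC deletion, each clone group measured against its own controls. *SLCO1B3* differed by −6.30 (FDR 0.00325), falling by 4.64 in one deletion and standing at 1.66 in the other. *LINC01419* differed by −5.86 (FDR 0.00849), with log2 FCs of −4.52 and 1.34. *LBH*, a transcription cofactor, differed by −5.73 (FDR 0.00227), with log2 FCs of −1.99 and 3.73. *IL7R* differed by −5.52 (FDR 0.00596), with −5.05 and 0.47, and *HMOX1* by −4.81 (FDR 0.012), with −2.33 and 2.48. *KCTD4* differed by −4.48 (FDR 0.0186), with −2.92 and 1.55. In the opposite direction *SGCZ* differed by 4.79 (FDR 0.00412), with 3.18 and −1.60, and *MDGA2* by 4.30 (FDR 0.004), with 3.15 and −1.15. With the replicate number as a block all 8 kept an FDR under 0.05, from 0.00915 for *LBH* to 0.0494 for *KCTD4*. The 2 control pairs also differ from each other, and their part in these differences was not tested. No group had the 4 or more libraries that a search for single outlying libraries needs.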

How the results depend on the processing

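Against the 367 DEGs, 654 were found with no filter on low values, 551 with voom on recovered reads, 240 at an FC of at least 2, and 151 with a replicate block. Fitting the own 5 libraries alone left 20, all 4 controls as a group left 29 and averaging each control pair left 0 in limma, with 2178, 1778 and 834 genes at an unadjusted p under 0.05. Leaving out single libraries gave 6 to 1732 DEGs, with 6 without control 2, 12 without control 1, 163 without clone 2, 108 without clone 3, 100 without either VEGFC-LNC control and 1732 without clone 1. A lone control was there assumed to vary like the other groups. The counts under the other pseudocounts, the stricter filter and median-of-ratios scaling were 295 to 460, and that scaling moved the share of lower calls from 73.3% to 66.0%. The 194 differences between the deletions became 329 with no filter, 86 with the replicate block, 0 with averaged control pairs and 5 to 694 without single libraries, and could not be formed in the own 5 libraries or with all 4 controls as a group. Of 83 called genes chosen by rule, 82 kept their direction under every alternative, and *SNORD104* turned to −0.32 against all 4 controls. Fewer kept their call: 38 with the replicate block, 16 against all 4 controls, 11 in the own 5 libraries, 6 without control 1, 5 without control 2 and 0 with averaged control pairs. *VEGFA* lay between −0.11 and −1.06 and was not called under any alternative. With 2 controls per deletion, which are much alike, the control pairs add little to the spread, which is pooled over the 4 groups. The p-values therefore rest on the spread between clones and also on counting each control library as a sample.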
